A study of Mus musculus with 6 samples.

Results

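Mitochondrial carriers and uncoupling proteins were described in gastrocnemius muscle, a calf muscle, of Nogo-/- mice and of Nogo+/+ mice. The members were the protein-coding genes whose symbols start with Slc25a together with Ucp1, Ucp2, Ucp3, Mtch1, Mtch2, Mpc1 and Mpc2. They were picked by name, but the choice was made with earlier results of these data known. The GENCODE M21 annotation names 54 such genes, and 45 of them were listed in the expression table, which held 12353 genes. The 9 members that were not listed were Slc25a2, Slc25a13, Slc25a18, Slc25a21, Slc25a31, Slc25a41, Slc25a43, Slc25a48 and Slc25a54. A gene was listed only if it reached an FPKM (fragment count scaled by transcript length and by library size) of 1 in at least 1 of the 6 libraries. Ucp1 and Slc25a53 reached that level only in Nogo-/- libraries, so they were in the table only through that group.

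The study asked what loss of Nogo, the membrane protein encoded by Rtn4 and best known as an inhibitor of axon growth, changes in skeletal muscle. Poly(A) RNA of whole gastrocnemius muscle was sequenced from 3 Nogo-/- mice (the libraries called Samples 4, 5 and 6) and from 3 Nogo+/+ mice (Samples 1, 2 and 3). The knockout is carried by every cell of the animal and no treatment or injury is named for the sequenced muscles. Both genotypes were kept on equal light and dark phases. The age, the sex and the time of day at which the sequenced muscles were taken are not given in the sources used here.

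Most carriers of the SLC25 family are small proteins of the inner mitochondrial membrane that move nucleotides, phosphate, carboxylates, amino acids and cofactors between the cytosol and the matrix. The uncoupling proteins belong to the same family, and Ucp1 of brown fat lets protons return to the matrix without making ATP. The mitochondrial pyruvate carrier, made of Mpc1 and Mpc2, is a separate small family, and Mtch1, Mtch2 and Slc25a46 are relatives of the carriers that sit in the outer membrane.

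Depth recovered from the FPKM values was alike, at 13740000 to 14440000 fragments in Nogo-/- libraries and 13475000 to 14415000 fragments in Nogo+/+ libraries. Rtn4, the targeted gene, stood at 0.312 to 0.423 FPKM in Nogo-/- libraries and at 414 to 429 FPKM in Nogo+/+ libraries. Of 10 muscle fiber markers, 0 passed the limma test (0 at an unadjusted p under 0.05), and their summed level was 33360 to 35540 FPKM in Nogo-/- libraries and 35330 to 36040 FPKM in Nogo+/+ libraries. Before that test the libraries were set to a common distribution of values (quantile normalization). A gene that keeps the same top rank in each library then receives the same value. The test could therefore hardly show a change of the most abundant markers. Myh4, for example, had means of 2747 FPKM in Nogo-/- and 2999 FPKM in Nogo+/+ muscles but a log2 fold change of -0.00. Sample 6 (Nogo-/-) stood apart in 8 skin keratinocyte markers, with a sum of 227.9 FPKM against 3.91 and 10.3 FPKM in the other Nogo-/- libraries and 2.94 to 14.2 FPKM in Nogo+/+ libraries. The sum of 5 endothelial markers was 66.6 to 81.0 FPKM in Nogo-/- libraries and 93.9 to 109.0 FPKM in Nogo+/+ libraries. In whole muscle, fewer cells of a type and less RNA per cell cannot be told apart.

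Differences were tested with limma on log2(FPKM + 1), so that a fold change understates the change of a low gene, and p-values were adjusted by Benjamini-Hochberg over all 12353 genes with a threshold of 0.05. At this threshold 5 of the 45 listed carriers (11.1%) differed between Nogo-/- and Nogo+/+ muscles, against 4.64% of all genes tested. In Nogo-/- muscles 4 carriers were upregulated, namely Slc25a25, Ucp3, Slc25a30 and Slc25a33 (8.89% of members, against 1.89% of all genes). Slc25a36 was the single downregulated member (2.22%, against 2.75% of all genes).

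The other 40 members had log2 fold changes of -0.26 to 0.50 and did not pass the test. For 13 of these the 95% interval of the fold change lay within 0.2 of 0 on the log2 scale. The median log2 fold change was 0.051 over the members and -0.007 over all genes, with 27 members above 0 and 18 below. The members above 0 include Ucp1 (0.41) and Slc25a53 (0.14), which were in the table only through Nogo-/- libraries. An unadjusted p under 0.05 was reached by 14 members (31.1%, against 20.5% of all genes). The values of the groups did not overlap for 20 members (44.4%, against 25.9% of all genes).

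**Figure D1:**
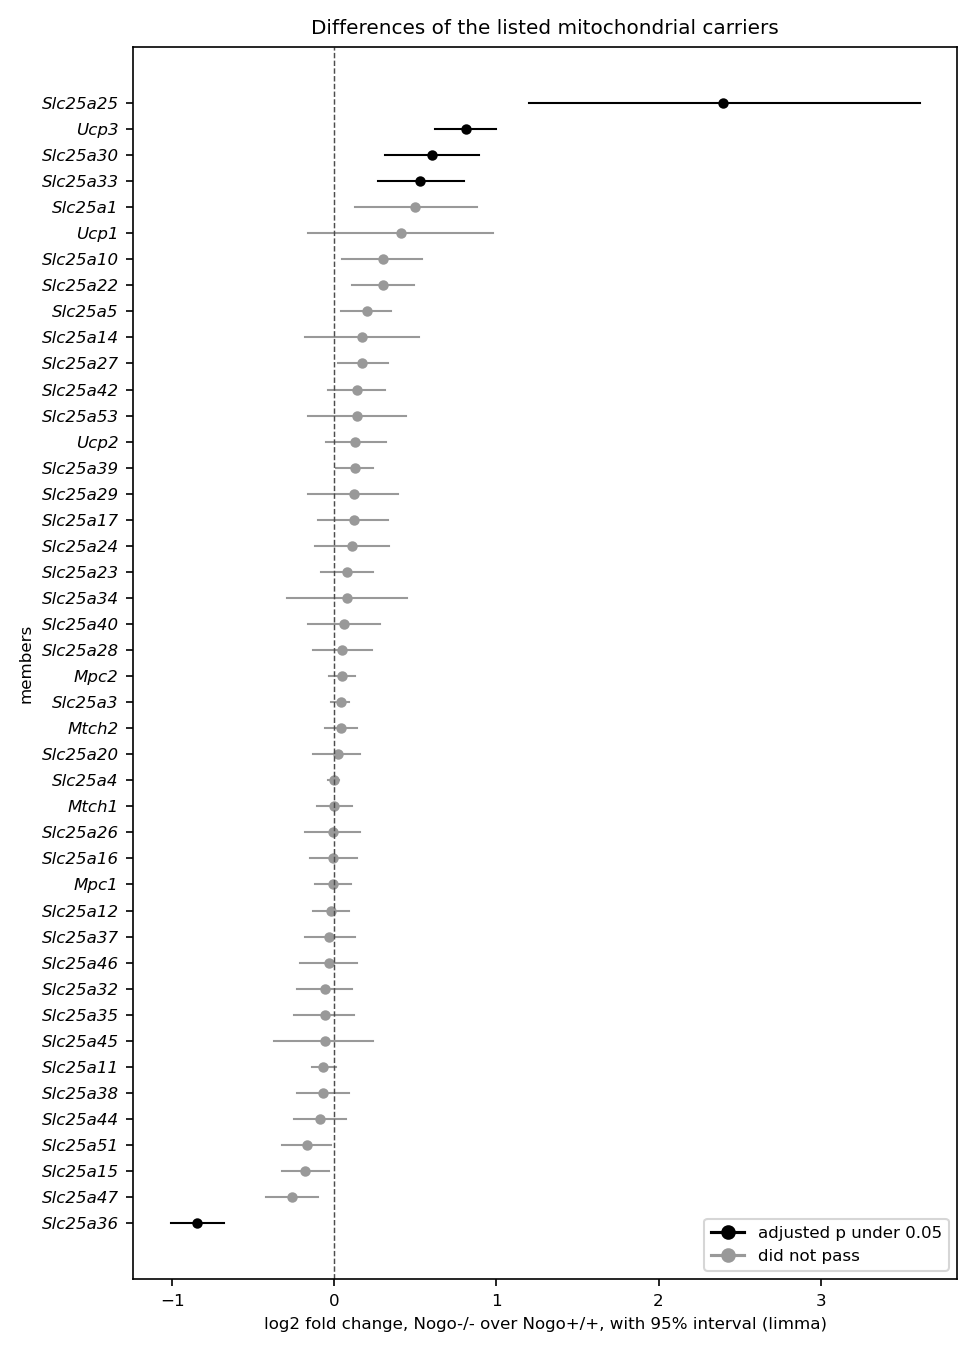
Log2 fold change of each listed member but 1, Nogo-/- over Nogo+/+ muscle (n = 3 libraries each), with its 95% interval from limma; black marks an adjusted p under 0.05. Slc25a25 has the largest estimate and the widest interval, Slc25a36 lies lowest, and most members lie close to 0.

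The most abundant member was Slc25a4, the ADP/ATP carrier of heart and muscle, which brings ADP into the matrix and ATP out. It measured 1318, 1234 and 1287 FPKM in Nogo-/- libraries and 1269, 1328 and 1292 FPKM in Nogo+/+ libraries (log2 fold change -0.00, SE 0.02, adjusted p = 0.914). The groups overlapped. Slc25a3, the phosphate carrier that also carries copper, measured 546, 547 and 559 FPKM in Nogo-/- libraries and 539, 528 and 525 FPKM in Nogo+/+ libraries (log2 fold change 0.04, adjusted p = 0.48). These values did not overlap, but the difference was small and did not pass the test.

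Summed over the 45 members, the level was 3336, 3192 and 3309 FPKM in Nogo-/- libraries and 3129, 3191 and 3147 FPKM in Nogo+/+ libraries. Slc25a4 and Slc25a3 together made 55.8% of that sum in each Nogo-/- library and 57.8 to 58.2% in Nogo+/+ libraries. A mean above 100 FPKM was held by 6 members and a mean under 10 FPKM by 18. The 5 changed genes were of low to middle level, with group means of 4.17 to 52.1 FPKM.

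**Figure D2:**
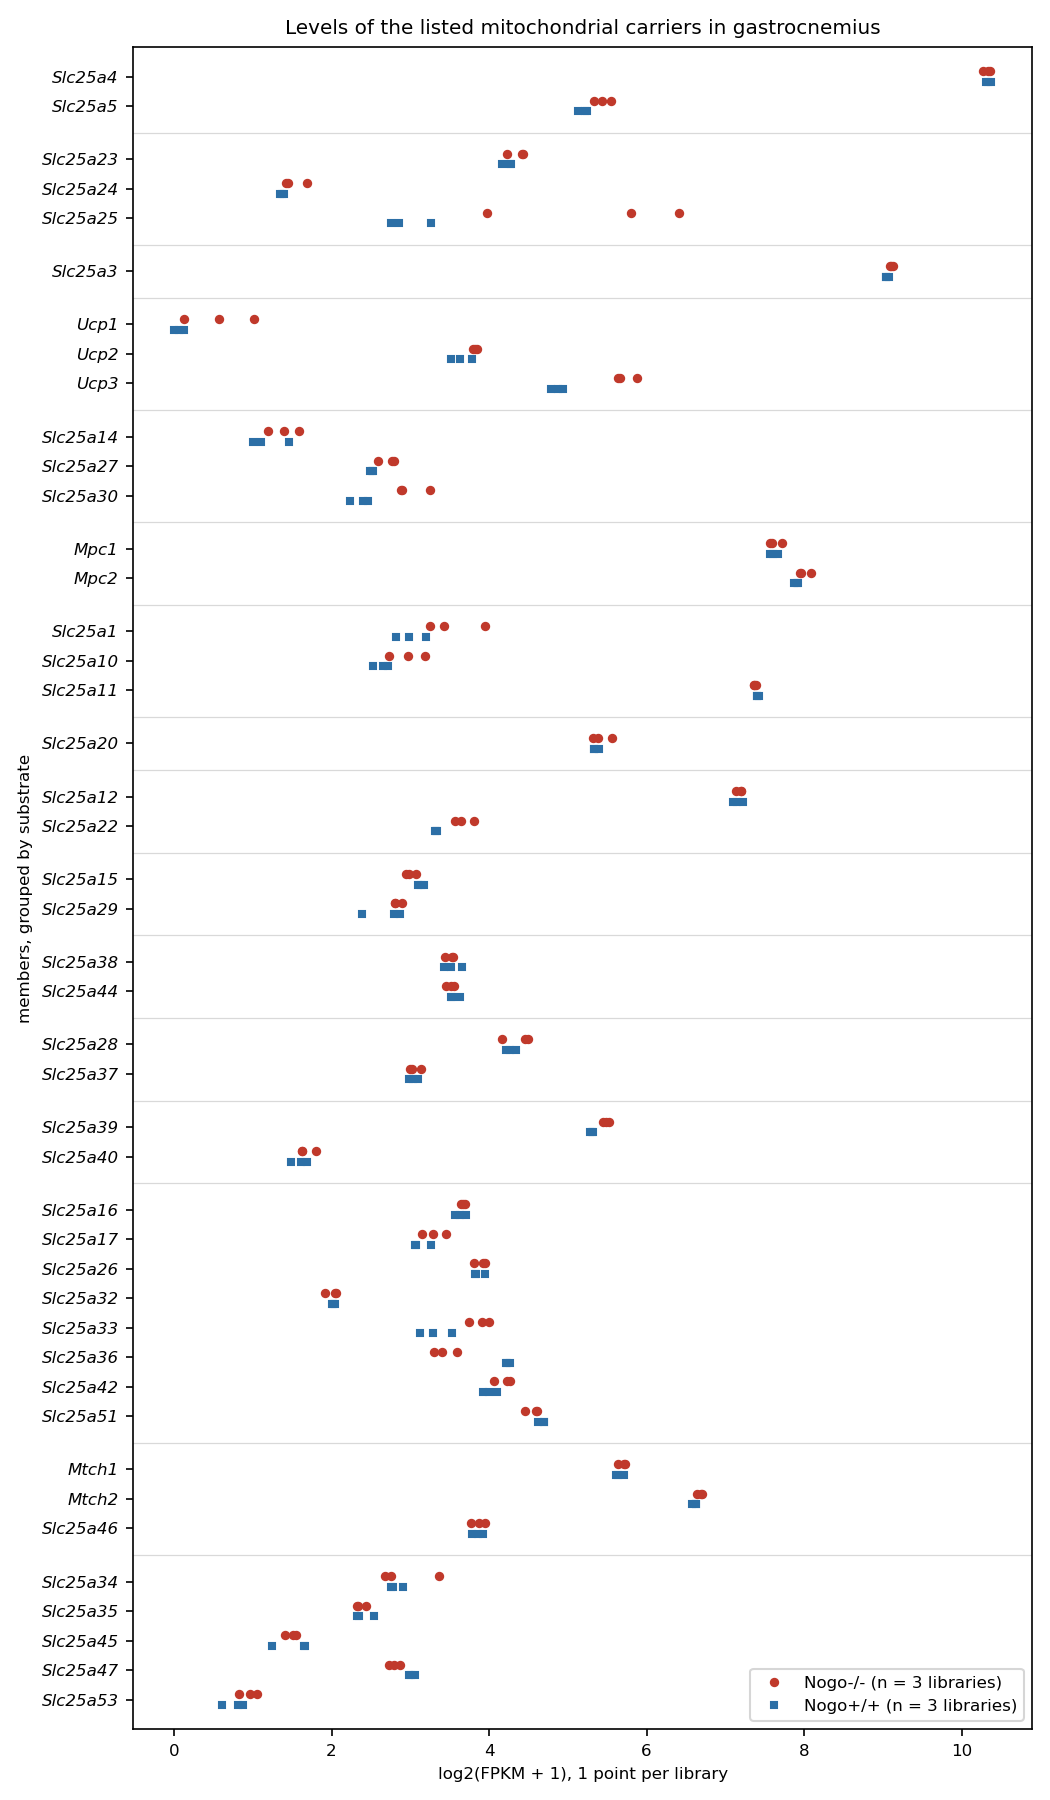
Level of each listed member but 1 as log2(FPKM + 1), 1 point per library, with Nogo-/- libraries as circles above and Nogo+/+ libraries as squares, and members grouped by substrate. Levels run from Ucp1, near 0, to Slc25a4, the highest, and the groups part most clearly for Slc25a25, Ucp3 and Slc25a36.

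Slc25a25 (chromosome 2) showed the largest log2 fold change of the family. It encodes a calcium-regulated ATP-Mg/phosphate carrier, which exchanges ATP-Mg in the cytosol for phosphate in the matrix and so sets the size of the matrix adenine nucleotide pool. Slc25a25 measured 54.7, 14.7 and 84.4 FPKM in Nogo-/- Samples 4, 5 and 6, against 5.75, 6.25 and 8.60 FPKM in Nogo+/+ Samples 1, 2 and 3. All 3 Nogo-/- libraries lay above every Nogo+/+ library, but Sample 5 was far lower than the other Nogo-/- libraries. Relative to the Nogo+/+ mean, the level was 7.96-fold in Sample 4, 2.15-fold in Sample 5 and 12.3-fold in Sample 6. The group means were 51.3 ± 35.0 FPKM in Nogo-/- and 6.87 ± 1.52 FPKM in Nogo+/+ muscles (SD, n = 3 each).

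The log2 fold change of Slc25a25 was 2.40 (SE 0.53, 95% interval 1.20 to 3.61, limma adjusted p = 0.0413). A two-sided exact permutation test over the 6 libraries returned 0.1, the smallest p that 3 against 3 allow. Without the variance trend in limma the adjusted p was 0.0882. Leaving out Sample 5 gave a log2 fold change of 3.12 with an adjusted p of 5.81e-04, whereas leaving out any one of the other 5 libraries gave 1.88 to 2.55 with adjusted p-values of 0.071 to 0.151. Without Sample 6, the library with the keratinocyte markers, the log2 fold change was 1.88 (adjusted p = 0.071).

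The other ATP-Mg/phosphate carriers of the muscle did not pass the test. Slc25a23 measured 20.4, 20.6 and 17.8 FPKM in Nogo-/- libraries and 16.9, 18.4 and 18.2 FPKM in Nogo+/+ libraries (log2 fold change 0.08, SE 0.07, limma adjusted p = 0.569). Slc25a24 stayed low, at 1.67 to 2.22 FPKM in Nogo-/- and 1.54 to 1.64 FPKM in Nogo+/+ libraries without overlap (log2 fold change 0.11, adjusted p = 0.604). FPKM is scaled by length, so these genes can be set side by side, and Slc25a25 made 70.7, 39.8 and 81.2% of the summed FPKM of these carriers in Nogo-/- libraries, against 23.7, 23.8 and 30.3% in Nogo+/+ libraries. Slc25a25 was thus above Slc25a23 in Samples 4 and 6, and below it in Sample 5 and in every Nogo+/+ library.

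**Figure D3:**
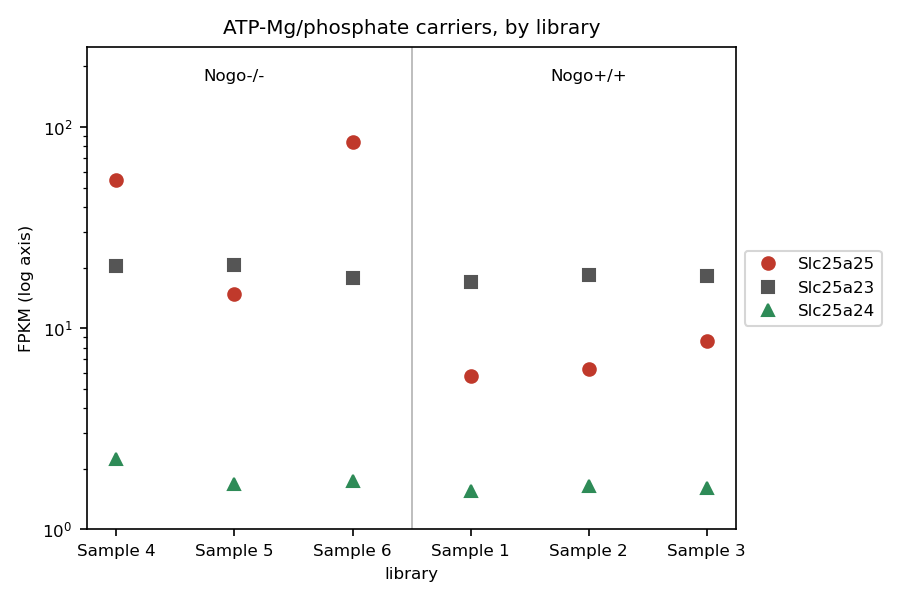
FPKM (log axis) of Slc25a25 (circles), Slc25a23 (squares) and Slc25a24 (triangles) in each library, Nogo-/- on the left and Nogo+/+ on the right. Slc25a25 spans 14.7 to 84.4 FPKM in Nogo-/- and 5.75 to 8.60 FPKM in Nogo+/+ libraries, while Slc25a23 stays between 16.9 and 20.6 FPKM.

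Slc25a25 has several start sites, and the table gave 1 value for the whole gene, so the transcripts cannot be told apart. The upstream sequence of the start site at position 32424066, which lies in an intron of the longer transcripts, is shown because it holds the cyclic AMP response element (CRE) palindrome TGACGTCA, printed in capitals; its first base lies 150 bases before the start. Sequences are from RefSeq on GRCm38.p6, written 5′ to 3′ along the strand of the gene.
Slc25a25 promoter, chr2:32424067-32424316, minus strand: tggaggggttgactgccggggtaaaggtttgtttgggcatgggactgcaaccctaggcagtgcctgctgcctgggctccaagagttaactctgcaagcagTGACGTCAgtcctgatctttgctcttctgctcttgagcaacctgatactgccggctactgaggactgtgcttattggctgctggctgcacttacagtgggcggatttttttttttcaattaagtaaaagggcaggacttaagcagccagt

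The 5′ end of Slc25a25 overlaps the gene Naif1 on the other strand over 989 bases. Whether strand was used in the counting is not stated, so fragments from this stretch cannot be assigned with certainty. Naif1 itself was low, at 1.09 to 1.55 FPKM in Nogo-/- and 1.01 to 1.10 FPKM in Nogo+/+ libraries.

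Among the uncoupling proteins, Ucp3 (chromosome 7) was upregulated. Ucp3 is the uncoupling protein of skeletal muscle, and it is known to be induced by fasting and by a supply of fatty acids. It measured 48.7, 49.8 and 57.6 FPKM in Nogo-/- libraries and 26.7, 29.7 and 28.4 FPKM in Nogo+/+ libraries. The groups were far apart relative to the spread within them (means 52.1 ± 4.86 FPKM in Nogo-/- and 28.3 ± 1.51 FPKM in Nogo+/+ muscles, SD, n = 3 each). The log2 fold change was 0.81 (SE 0.08, limma adjusted p = 0.00146), and the call held when any 1 library was left out, with log2 fold changes of 0.72 to 0.86.

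Ucp2, the widely expressed relative, measured 13.4, 13.1 and 12.9 FPKM in Nogo-/- and 11.4, 12.8 and 10.4 FPKM in Nogo+/+ libraries (log2 fold change 0.13, 95% interval -0.05 to 0.32, limma adjusted p = 0.402), and these did not overlap. The ratio of Ucp3 to Ucp2 was 3.65, 3.798 and 4.47 in Nogo-/- libraries and 2.34, 2.33 and 2.72 in Nogo+/+ libraries, without overlap. Ucp1, the thermogenic protein of brown fat, was at the edge of detection: about 11.0, 23.9 and 2.0 fragments in Nogo-/- libraries and 0, 2.0 and 1.0 fragments in Nogo+/+ libraries. Those values are 0.484, 1.01 and 0.0887 FPKM in Nogo-/- and 0, 0.0904 and 0.0423 FPKM in Nogo+/+ libraries (adjusted p = 0.408). Sample 6 overlapped the Nogo+/+ libraries.

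Brown fat markers were measured beside Ucp1, with 6 of 7 listed. Cidea, a lipid droplet protein of fat cells, rose (3.71, 4.03 and 3.30 FPKM in Nogo-/- and 0.746, 1.91 and 0.951 FPKM in Nogo+/+ libraries, log2 fold change 1.09, limma adjusted p = 0.0142), and the other 5 did not pass the test. The summed brown fat markers were 657 to 694 FPKM in Nogo-/- and 618 to 670.2 FPKM in Nogo+/+ libraries, nearly all of it Cox8b, a gene that muscle also expresses. Of 9 white fat markers 0 passed the limma test, but 5 had an unadjusted p under 0.05 (Cidec, Plin1, Lep and Fabp4 with positive estimates, Car3 with a negative one), and the list had a median log2 fold change of 0.519. Their sums, mostly Car3, which muscle also expresses, were 1904 to 2436 FPKM in Nogo-/- and 1867 to 2053 FPKM in Nogo+/+ libraries. Cidec, Plin1 and Adipoq, proteins of fat cells, are given in full and were chosen after their values were seen. Cidec measured 31.7, 18.6 and 13.1 FPKM in Nogo-/- and 5.83, 8.95 and 9.38 FPKM in Nogo+/+ libraries, and Plin1 measured 19.7, 13.3 and 8.33 FPKM in Nogo-/- and 5.44, 7.25 and 7.38 FPKM in Nogo+/+ libraries, both without overlap. Adipoq measured 46.8, 27.8 and 17.2 FPKM in Nogo-/- and 12.7, 20.9 and 20.1 FPKM in Nogo+/+ libraries. Sample 4 was the highest library in all 3, and also for Lep, Fabp4, Retn and Cfd. Of the other white fat markers, Lpl was highest in Sample 5 and Car3 in Sample 3. The part of fat cells in the values of Ucp1 and Ucp3 was not tested.

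The brain-type relatives of the uncoupling proteins, Slc25a14, Slc25a27 and Slc25a30, were low in muscle. Slc25a30, also called kidney mitochondrial carrier protein, is encoded on chromosome 14 and measured 6.44, 6.37 and 8.49 FPKM in Nogo-/- libraries and 3.71, 4.52 and 4.27 FPKM in Nogo+/+ libraries. The groups did not overlap (log2 fold change 0.60, SE 0.13, limma adjusted p = 0.0369). When a library was left out the log2 fold change stayed at 0.46 to 0.68, with an adjusted p of 0.0532 to 0.118. Slc25a27 measured 5.01 to 5.95 FPKM in Nogo-/- and 4.64 to 4.75 FPKM in Nogo+/+ libraries (log2 fold change 0.17, adjusted p = 0.205), and Slc25a14 stood at 1.01 to 2.01 FPKM in all libraries.

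Slc25a33 and Slc25a36, the carriers of pyrimidine nucleotides into mitochondria, moved in opposite directions. Slc25a36 (chromosome 9) measured 11.0, 9.59 and 8.88 FPKM in Nogo-/- libraries and 17.7, 18.2 and 17.6 FPKM in Nogo+/+ libraries. The Nogo+/+ values lay close together and every Nogo-/- value was below them (log2 fold change -0.85, SE 0.07, limma adjusted p = 5.76e-04). Leaving out any 1 library kept the call, at -0.91 to -0.80. Slc25a33 (chromosome 4), known to respond to insulin-like growth factor signalling in cultured cells, measured 12.4, 14.0 and 15.0 FPKM in Nogo-/- libraries and 10.6, 7.68 and 8.73 FPKM in Nogo+/+ libraries. The groups did not overlap (log2 fold change 0.53, SE 0.11, adjusted p = 0.0392), but when a library was left out this call held only without Sample 1 or without Sample 4. The log2 fold change was 0.44 to 0.64 over all 6 such fits, and the adjusted p was 0.095 to 0.143 without any one of the other 4 libraries.

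The order of this pair was reversed between the genotypes. The ratio of Slc25a33 to Slc25a36 was 1.124, 1.465 and 1.689 in Nogo-/- libraries, all above 1, and 0.599, 0.422 and 0.495 in Nogo+/+ libraries, all below 1. Their summed level was 23.4 to 23.9 FPKM in Nogo-/- and 25.9 to 28.3 FPKM in Nogo+/+ libraries, and Slc25a36 made 37.2 to 47.1% of it in Nogo-/- and 62.6 to 70.3% in Nogo+/+ libraries. Slc25a33, Slc25a36 and Ucp3 each overlap an annotated antisense gene that was not listed in the table (Gm13068, Gm16185 and Gm10603).

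**Figure D4:**
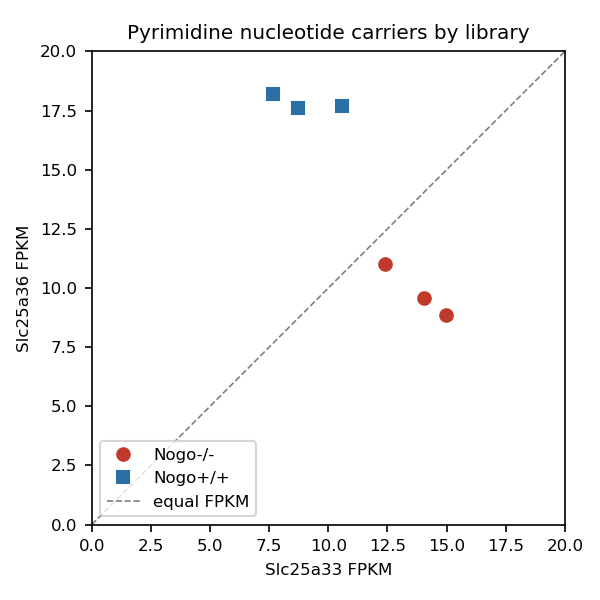
FPKM of Slc25a36 against Slc25a33 in each library, with a dashed line where the values are equal. The 3 Nogo-/- libraries (circles) lie below the line and the 3 Nogo+/+ libraries (squares) above it.

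**Figure D5:**
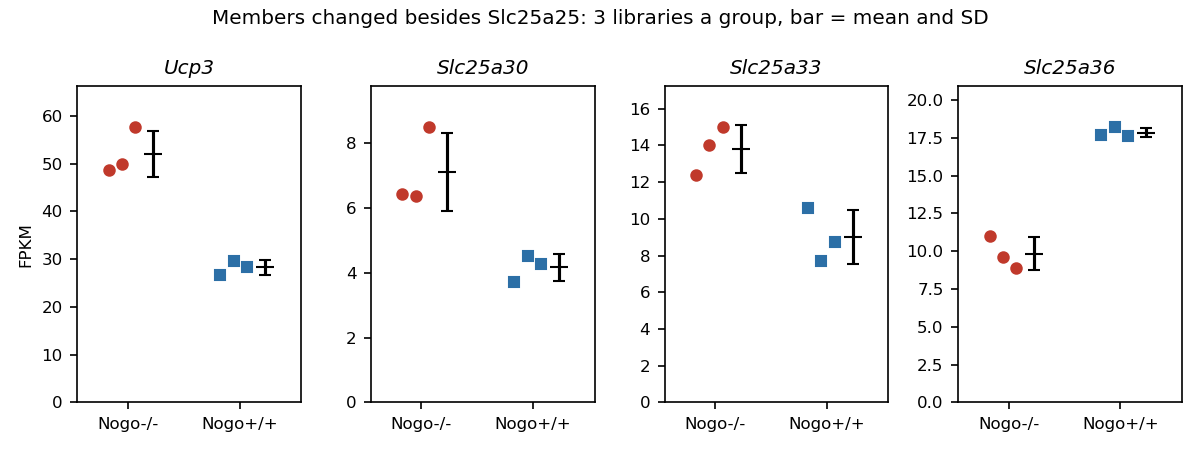
FPKM of Ucp3, Slc25a30, Slc25a33 and Slc25a36 in each library, Nogo-/- left of Nogo+/+, with the mean and SD of 3 libraries beside the points. The groups do not overlap in any of the 4 panels, and Slc25a36 alone is lower in Nogo-/- muscle.

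The upstream sequences of Slc25a36 and Ucp3 are shown for contrast with that of Slc25a25, since Slc25a36 was the one downregulated member and Ucp3 the upregulated member with the steadiest values. Capitals mark the E-box CACGTG, bound by the clock factors among others, and the CRE TGACGTCA; in Slc25a36 their first bases lie 187 and 161 bases before the start site at 97111041, and the bases nearer to it are exonic in some transcripts and are left out. The Ucp3 window holds neither.
Slc25a36 promoter, chr9:97111158-97111291, minus strand: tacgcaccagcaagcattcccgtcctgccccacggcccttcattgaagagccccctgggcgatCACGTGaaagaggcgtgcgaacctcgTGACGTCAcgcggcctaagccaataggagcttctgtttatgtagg
Ucp3 promoter, chr7:100472741-100472989, plus strand: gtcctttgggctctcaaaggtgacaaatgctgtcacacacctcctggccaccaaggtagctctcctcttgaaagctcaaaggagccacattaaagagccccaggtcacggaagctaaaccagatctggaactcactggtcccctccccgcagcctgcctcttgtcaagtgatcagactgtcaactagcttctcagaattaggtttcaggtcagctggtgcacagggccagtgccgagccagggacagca

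The E-box CACGTG, the CRE TGACGTCA and the D-box TTATGTAA were searched for on both strands in windows from 250 bases before to 50 bases after each RefSeq start. A promoter was found for 43 of the 54 members, with 55 windows in all. The E-box was in 8 of these windows (14.5%) against 7.15% of all 32851 promoters. The 7 members with it were Slc25a1, Slc25a13, Slc25a14, Slc25a15, Slc25a31, Slc25a33 and Slc25a36. Of these only Slc25a33 and Slc25a36 were changed members, and Slc25a13 and Slc25a31 were not listed. In Slc25a33 the E-box lies 8 bases before the start. The CRE was in 2 windows (3.64%), 1 of Slc25a25 and 1 of Slc25a36, against 1.79% of all promoters. For Slc25a25 only the window at 32424066 held it, and the windows at its other start sites held none of the 3 motifs. The D-box was in 0 of the 55 windows and in 0.938% of all promoters. The windows of Ucp3 and Slc25a30 held none of the 3 motifs. A match describes these letters only, and binding was not measured.

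Clock genes were read beside these carriers, because the time of collection is not given. Of 14 clock genes, 13 changed, 9 upward and 4 downward. Dbp measured 149, 167 and 145 FPKM in Nogo-/- libraries and 16.4, 15.3 and 17.5 FPKM in Nogo+/+ libraries. Arntl measured 2.198, 1.333 and 1.408 FPKM in Nogo-/- and 15.6, 15.2 and 15.0 FPKM in Nogo+/+ libraries. Per1, a clock gene that is also induced by cyclic AMP signals, measured 30.5, 18.3 and 35.6 FPKM in Nogo-/- and 2.09, 2.02 and 1.92 FPKM in Nogo+/+ libraries. The genotype and a difference in collection time cannot be told apart in these libraries, and the part of the clock genes in the values of the carriers was not tested.

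Endothelial markers moved with the genotype as well, with 4 of 5 lower in Nogo-/- muscles (Kdr, Cdh5, Pecam1 and Tek). Kdr, a growth factor receptor of blood vessels, measured 8.90, 7.86 and 6.13 FPKM in Nogo-/- and 14.9, 14.2 and 15.2 FPKM in Nogo+/+ libraries (log2 fold change -0.92, limma adjusted p = 0.00192). The part of endothelial cells in the lower level of Slc25a36 was not tested. Of the 5 listed erythroid, 4 macrophage and 8 keratinocyte markers, 0 passed the limma test and 0 had an unadjusted p under 0.05.

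Carriers that feed fuel to the matrix were close to equal in the genotypes. Mpc1 measured 210.3, 192 and 189 FPKM in Nogo-/- and 189, 202 and 194 FPKM in Nogo+/+ libraries (log2 fold change -0.01, limma adjusted p = 0.953). Its partner Mpc2 measured 271, 245 and 248 FPKM in Nogo-/- and 234, 240.0 and 242 FPKM in Nogo+/+ libraries, without overlap but with a log2 fold change of only 0.05 (95% interval -0.03 to 0.13, adjusted p = 0.462). Slc25a20, which brings acylcarnitines into the matrix for fatty acid oxidation, measured 40.9, 46.2 and 38.94 FPKM in Nogo-/- and 39.3, 39.4 and 41.0 FPKM in Nogo+/+ libraries. The groups overlapped (log2 fold change 0.02, adjusted p = 0.91).

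Carriers of the malate-aspartate shuttle, which passes reducing equivalents from the cytosol to the matrix, were abundant. The aspartate/glutamate carrier Slc25a12 measured 139.8, 145.8 and 146.5 FPKM in Nogo-/- and 148.8, 140.7 and 136.5 FPKM in Nogo+/+ libraries (limma adjusted p = 0.824). The 2-oxoglutarate/malate carrier Slc25a11 measured 163.5, 167.3 and 163.8 FPKM in Nogo-/- and 171.3, 168.0 and 168.6 FPKM in Nogo+/+ libraries. Its values lay lower in each Nogo-/- library, yet the log2 fold change was -0.07 (adjusted p = 0.31).

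Less abundant carboxylate and glutamate carriers gave higher estimates that did not pass the test. Slc25a1, the citrate carrier that exports citrate for fatty acid synthesis, measured 14.4, 9.76 and 8.53 FPKM in Nogo-/- and 6.08, 6.92 and 8.15 FPKM in Nogo+/+ libraries (log2 fold change 0.50, SE 0.16, limma adjusted p = 0.134). Slc25a10, the dicarboxylate carrier, measured 8.11, 6.84 and 5.62 FPKM in Nogo-/- and 5.29, 5.56 and 4.77 FPKM in Nogo+/+ libraries (log2 fold change 0.30, adjusted p = 0.167). Slc25a22, a glutamate carrier, measured 11.5, 10.9 and 13.1 FPKM in Nogo-/- and 8.92, 9.08 and 9.08 FPKM in Nogo+/+ libraries (log2 fold change 0.30, SE 0.08, adjusted p = 0.0844). None of these had overlapping groups, and Slc25a22 passed the test only without quantile normalization among the 11 alternatives tried (adjusted p = 0.0421).

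Slc25a5, the ADP/ATP carrier of proliferating and many other cells, measured 45.9, 39.3 and 42.3 FPKM in Nogo-/- and 33.9, 36.1 and 36.9 FPKM in Nogo+/+ libraries (log2 fold change 0.20, limma adjusted p = 0.163). It made at least 3.09% of the summed FPKM of Slc25a4 and Slc25a5 in Nogo-/- libraries and at most 2.77% in Nogo+/+ libraries.

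No carrier of ornithine, basic or branched-chain amino acids or glycine passed the limma test, and 1, Slc25a15, had an unadjusted p under 0.05. Slc25a15, the ornithine carrier of the urea cycle, measured 6.91, 7.40 and 6.73 FPKM in Nogo-/- and 7.79, 8.07 and 7.55 FPKM in Nogo+/+ libraries (log2 fold change -0.18, limma adjusted p = 0.178). Slc25a44, a carrier of branched-chain amino acids, measured 9.92, 10.8 and 10.4 FPKM in Nogo-/- and 10.51, 11.40 and 10.47 FPKM in Nogo+/+ libraries, which overlapped (adjusted p = 0.503). Slc25a38, which supplies glycine for heme synthesis, and Slc25a29, a carrier of basic amino acids, also overlapped between the groups.

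Iron is brought into mitochondria by Slc25a37 and Slc25a28, the mitoferrins. Slc25a28 measured 21.5, 20.9 and 17.0 FPKM in Nogo-/- and 19.3, 17.6 and 18.3 FPKM in Nogo+/+ libraries (log2 fold change 0.05, limma adjusted p = 0.772). Slc25a39, which imports glutathione, measured 42.6, 43.9 and 44.8 FPKM in Nogo-/- and 38.95, 38.75 and 37.75 FPKM in Nogo+/+ libraries. These groups did not overlap, with a log2 fold change of 0.13 (SE 0.05, adjusted p = 0.208). Slc25a40, its close relative, was low and overlapped.

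Of the 9 nucleotide and cofactor carriers, only Slc25a33 and Slc25a36 passed the test. Slc25a51, which imports NAD, measured 20.96, 23.49 and 23.11 FPKM in Nogo-/- and 23.7, 25.0 and 25.0 FPKM in Nogo+/+ libraries (log2 fold change -0.17, limma adjusted p = 0.198). Slc25a16, Slc25a17, Slc25a26, Slc25a32 and Slc25a42, which serve coenzyme A, S-adenosylmethionine, folate and flavin cofactors, had log2 fold changes of -0.06 to 0.14, and their groups overlapped.

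In the outer membrane, Mtch2, an insertase for membrane proteins, measured 99.1, 103 and 102 FPKM in Nogo-/- and 94.2, 97.7 and 98.1 FPKM in Nogo+/+ libraries (log2 fold change 0.04, limma adjusted p = 0.673). Mtch1 measured 51.5, 51.8 and 48.8 FPKM in Nogo-/- and 48.7, 47.7 and 51.7 FPKM in Nogo+/+ libraries (log2 fold change 0.00, adjusted p = 0.979). Slc25a46, a partner of the mitochondrial fusion machinery, overlapped as well. Among 5 listed members without a substrate given here, Slc25a34 measured 5.74, 9.31 and 5.41 FPKM in Nogo-/- and 5.88, 6.48 and 5.75 FPKM in Nogo+/+ libraries (adjusted p = 0.826). Slc25a47, known from liver and the member of this group with the highest mean over all libraries, measured 5.62, 6.28 and 5.93 FPKM in Nogo-/- and 7.34, 7.05 and 6.93 FPKM in Nogo+/+ libraries, without overlap (log2 fold change -0.26, adjusted p = 0.0777).

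The partners of the carriers were counted in lists of 40 further genes, of which 0 rose and 2 fell (5% changed, against 4.64% of all genes). Their median log2 fold change was -0.029, against -0.007 in the whole table. None of 13 genes that import carriers and insert them into the membrane, 3 porins (Vdac1, Vdac2 and Vdac3), 6 enzymes of the malate-aspartate and glycerophosphate shuttles and 4 enzymes of the carnitine shuttle passed the limma test. At an unadjusted p under 0.05 the counts were 2 import genes, 0 porins, 1 shuttle enzyme, 2 carnitine enzymes, 3 pyruvate dehydrogenase genes and 1 phosphocreatine gene, or 9 of 40 in all (22.5%, against 20.5% of all genes). Among 11 genes of pyruvate dehydrogenase and its kinases, Pdk4, a kinase that shuts the complex off, measured 109, 118 and 95.5 FPKM in Nogo-/- and 124, 142 and 139 FPKM in Nogo+/+ libraries (log2 fold change -0.35, limma adjusted p = 0.0369). Slc6a8, the creatine transporter of the plasma membrane and 1 of 3 phosphocreatine genes, measured 55.8, 56.5 and 49.1 FPKM in Nogo-/- and 69.4, 63.6 and 63.9 FPKM in Nogo+/+ libraries (log2 fold change -0.33, adjusted p = 0.0225). Both calls were lost without quantile normalization, without the variance trend and without Sample 2 or Sample 3. Pdk4 was also lost without Sample 4 or Sample 6, and Slc6a8 without Sample 1. With all libraries Pdk4 was lower and Ucp3 higher in Nogo-/- muscles. Both are known to be induced by fasting in muscle, and the part of feeding state in these values was not tested.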

How the data were processed

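The authors extracted RNA from gastrocnemius muscle, made libraries with a stranded poly(A) kit and sequenced them on a HiSeq instrument. Per the study's methods, reads were trimmed with cutadapt, aligned with STAR to the mouse genome GRCm38.p6 and quantified with Cufflinks. The versions were cutadapt 1.4.2, STAR 2.6.1 and Cufflinks 2.2.1, which the methods of the paper do not state. The deposited values used here are FPKM per gene, normalized by the authors for transcript length and library size, with genes kept that reached 1 FPKM in at least 1 of 6 libraries. Deposited log2 columns after the authors' quantile normalization (6 per-sample columns) were not used, because their names could not be tied to single samples. The columns of FPKM were assigned to genotypes from the column headings of the study, under which the same FPKM values stand, rather than from the level of any gene. They carry no replicate number, so the libraries are named by their column.

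FPKM were quantile normalized over 12353 genes, set to log2(FPKM + 1) and fitted with limma 3.58.1 (trend) in R 4.3.3. Benjamini-Hochberg adjustment was over the whole table, with a threshold of 0.05. Symbols of 12342 of the 12353 identifiers were matched in GENCODE M21. Depth was recovered from genes with 1 transcript, where FPKM times length gives whole fragments. For each library the depth was chosen that put the largest share of such values within 0.1 of a whole number. That share was between 94.4% and 96.7%. Chance gives 20.0% at a depth fixed beforehand, which is not the chance level of a share that was maximized. Alternatives were a pseudocount of 0.1, a mean of at least 1 FPKM, no quantile normalization, no trend, sample weights and leaving out each library. Per-library values are given for Slc25a25, for changed members, for each Ucp, Mpc and Mtch gene and for the most abundant member of each substrate group. Other members are named where an unadjusted p was under 0.05 or the groups did not overlap. The values of 1 listed member, which is included in the counts, are not reported here. Members and lists were chosen with earlier results of these data known. The muscles came from separate mice, 3 a genotype.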

Additional observations from a re-analysis of the deposited data

How the results depend on the processing

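The number of genes changed over the whole table was 188 to 434 when a library was left out, against 573 with all 6, and 421 to 653 under the other settings. Of the calls, 233 of 573 were higher in Nogo-/- muscles, against 302 of 536 without quantile normalization. Of the 45 listed carriers, 5 changed with all libraries, against 573 of all 12353 genes. When a library was left out, 2 to 3 carriers changed, against 188 to 434 of all genes. Without the variance trend the counts were 2 of 45 carriers and 421 of 12353 genes. Ucp3 and Slc25a36 were among the changed carriers under all 11 settings. Slc25a25 kept its direction throughout, at 1.88 to 3.12 on the log2 scale when a library was left out, and at 2.40 without the trend (adjusted p = 0.0882, limma). Slc25a30 (adjusted p = 0.0698) and Slc25a33 (adjusted p = 0.0763) also missed the threshold without the trend. Sample 6, the library with the keratinocyte markers, held the most extreme Nogo-/- value for each of the 5 changed carriers. Without Sample 6 the log2 fold changes were 0.72 for Ucp3, 0.46 for Slc25a30, 0.46 for Slc25a33 and -0.80 for Slc25a36. Of the 40 partner genes, 2 changed, against 0 without quantile normalization, 0 without the trend and 0 to 2 when a library was left out. The sign of the fold change turned in at least 1 setting for 14 members, all with log2 fold changes of -0.06 to 0.12. Causes were not tested.

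No paired analysis was possible because the columns carry no replicate numbers. The authors' normalized log2 values were also not run as an alternative. With 3 libraries a group, the calls for Slc25a25, Slc25a30 and Slc25a33 were lost without any one of 5, 6 and 4 of the libraries, while their fold changes kept their direction, and Ucp1 rested on at most 23.9 fragments a library.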
